A study of Mus musculus with 6 samples.

Results

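The genes described are 9 enzymes of NAD synthesis and nicotinamide metabolism: Qprt, Kynu, Haao, Nampt, Naprt, Nmnat1, Nmnat3, Nadk and Nnmt. They were taken by gene symbol, as every probe set whose only symbol on the array platform was that of a member, which gave 16 probe sets of 45037 and 9 genes of the 18193 with a probe set of their own. By RefSeq on GRCm38.p6, Qprt lies at chr7:127107770-127122029, Kynu at chr2:43555258-43683048 and Haao at chr17:83831348-83848981. Nampt lies at chr12:32820335-32853369, Naprt at chr15:75890963-75894481 and Nadk at chr4:155562381-155591001. Nmnat1 lies at chr4:149467569-149485210, Nmnat3 at chr9:98287433-98420533 and Nnmt at chr9:48538002-48607655. The array values name no build. The group was put together with the difference between the 2 cell populations already known. Its differences are therefore given as a description, without a p-value, and support no further statement.

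Transcripts were measured by 1-colour Affymetrix arrays in PICs and in satellite cells of C57 black 6 mice aged 7 to 9 days, with 3 arrays for each population. PICs are interstitial cells of muscle known for the protein PW1, while satellite cells are the stem cells that lie against the muscle fibres. Both came from the same kind of sample, enzymatically digested hindlimb muscle of young mice with no treatment or genetic change named in the labels, and were parted by flow cytometry on CD34 and Sca1. The labels call the arrays biological replicates and do not say how many mice went into each, so the spread given is that between arrays.

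NAD is the coenzyme that carries electrons in glycolysis and in the mitochondria, and it is also consumed as a substrate by sirtuins and poly(ADP-ribose) polymerases. Cells make it from tryptophan through the kynurenine route, from nicotinic acid, from nicotinamide riboside, or by salvage of the nicotinamide that the consuming enzymes release. Nnmt takes nicotinamide out of this cycle by methylation. In muscle, salvage through Nampt is known as the main source, and satellite cell function is known to depend on NAD supply.

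A promoter sequence was listed for 6 of the 9 genes, in RefSeq on GRCm38.p6. Those of Qprt, Haao and Nampt are shown because they belong to the 3 kinds of reading found among the members: higher in PICs, at the low end in both populations, and overlapping between them. Each run is the 250 bases before a listed transcription start, 5′ to 3′ on the gene's strand. Capitals mark GC boxes and STAT sites. Both motifs were searched on both strands.
Qprt, chr7:127122030-127122279, minus strand: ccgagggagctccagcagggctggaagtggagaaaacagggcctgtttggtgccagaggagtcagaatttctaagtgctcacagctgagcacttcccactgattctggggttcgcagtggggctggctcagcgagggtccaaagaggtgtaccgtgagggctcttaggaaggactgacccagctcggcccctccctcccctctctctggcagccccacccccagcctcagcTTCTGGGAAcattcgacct
Haao, chr17:83846791-83847040, minus strand: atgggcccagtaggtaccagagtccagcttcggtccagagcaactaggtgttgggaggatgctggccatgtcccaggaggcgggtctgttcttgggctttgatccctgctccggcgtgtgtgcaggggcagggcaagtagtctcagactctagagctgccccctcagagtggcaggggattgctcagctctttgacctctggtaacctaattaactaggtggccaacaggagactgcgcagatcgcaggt
Nampt, chr12:32820085-32820334, plus strand: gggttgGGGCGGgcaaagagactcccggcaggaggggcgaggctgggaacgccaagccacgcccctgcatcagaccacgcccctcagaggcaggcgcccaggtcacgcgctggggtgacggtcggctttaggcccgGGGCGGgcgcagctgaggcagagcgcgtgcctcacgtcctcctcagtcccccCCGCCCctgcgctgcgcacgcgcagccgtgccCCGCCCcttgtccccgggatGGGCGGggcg

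The Nampt window held 5 GC boxes and 27 CpG dinucleotides, more CpG than 91.4% of the 32817 promoters of the same length, whose median was 6. The Qprt and Haao windows held 0 GC boxes and 6 CpG each. The Haao window precedes a listed start that lies inside the bounds of the gene given above, while those of Qprt and Nampt adjoin the 5′ end of the gene, so it need not be the only promoter of Haao. The only capitals in the Qprt window are a STAT site (letters TTCNNNGAA) from base -19 to base -11, counted back from the start. A STAT site occurred in 7.01% of all promoters. GC boxes (letters GGGCGG) occurred in 32.7% of all promoters. The CCAAT box, which 33.8% of all promoters held, was in none of the 3 windows. The TATA box, searched as the letters TATAAA and held by 12.4%, was in none of them either, and the same was so for the AP-1 site, searched as TGANTCA and held by 6.75%. All were searched on both strands, and a GC box can overlap a CpG dinucleotide. An E-box (CANNTG, left in lower case, in 66.2% of promoters) was found once in the Qprt window and once in the Nampt window. These matches describe letters, and binding was not measured.

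**Figure D1:**
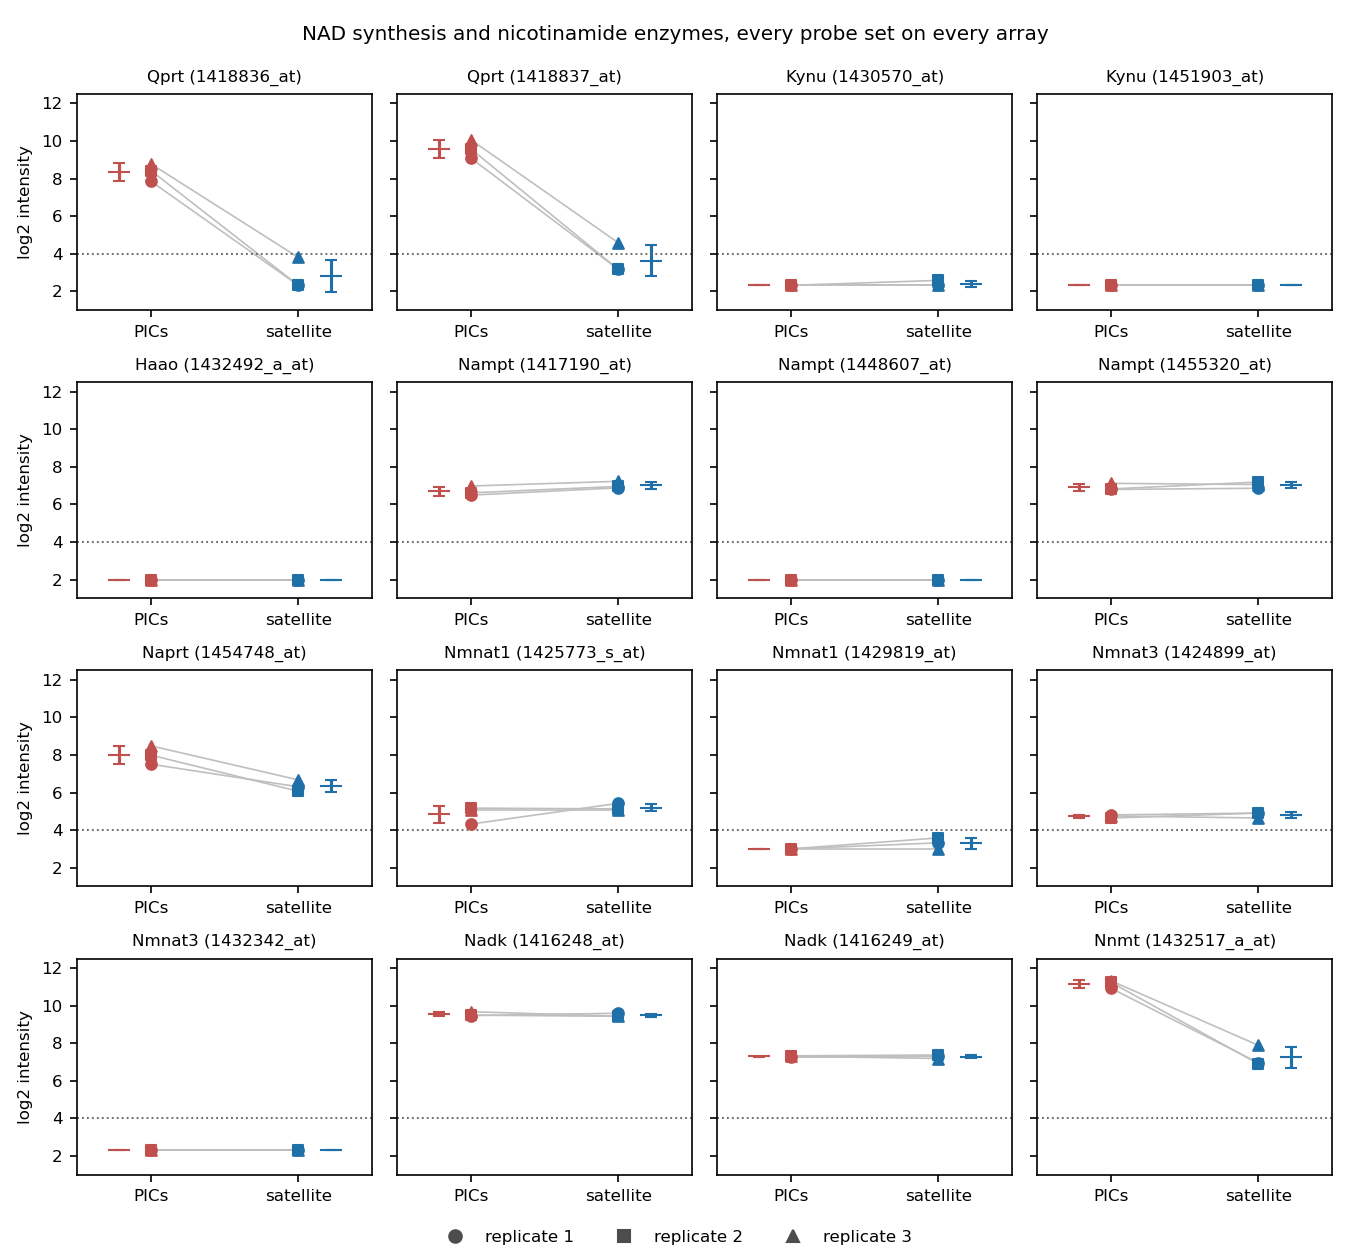
Log2 intensity of all 16 probe sets of the 9 genes on each array, with PICs in red and satellite cells in blue. Grey lines join arrays of equal replicate number, side bars give the mean and SD of 3 arrays, and the dotted line marks log2 4, an intensity of 16. The 2 Qprt probe sets, Naprt and Nnmt lie higher on every PIC array than on any satellite array, and the remaining probe sets overlap.

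Qprt, Nnmt and Naprt read higher in PICs, Nampt, Nadk, Nmnat1 and Nmnat3 had readings that overlapped between the populations, and Kynu and Haao stayed at the low end everywhere. A gene was taken as measured when a probe set exceeded an intensity of 16 (log2 4) on at least 3 of the 6 arrays. By that filter 7 of the 9 genes and 10 of the 16 probe sets passed. By limma's adjusted p under 0.05 with a log2 difference of at least 1, 3 of the 7 were higher in PICs and 0 in satellite cells. Over all 10855 genes tested by the same rule, 16.7% were higher in PICs, 13.0% were higher in satellite cells and 29.8% were called in all. All PIC arrays lay above all satellite arrays for 4 of the 10 probe sets kept and for 3 of the 7 genes. Of these, Qprt 1418836_at passed the filter through its 3 PIC arrays alone, and Qprt 1418837_at through those and 1 satellite array. Their place in the counts thus depends on their high PIC readings. Over all genes tested that order held for 31.3%, and arrays did not overlap in either direction for 64.6% of genes and 59.9% of the 18433 probe sets kept. Since the genes were chosen on this contrast, the limma calls are no test of the members, and nothing is read from these counts.

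The tryptophan route ends with Qprt, quinolinate phosphoribosyltransferase, which turns quinolinic acid into nicotinic acid mononucleotide. Its brighter probe set (1418837_at) read 545, 764 and 1072 on PIC replicates 1, 2 and 3, and 9, 9 and 24 on satellite replicates 1, 2 and 3. Every PIC array thus lay far above every satellite array, and only satellite replicate 3 exceeded 16. On the log2 scale the PIC mean was 9.58 ± 0.49 and the satellite mean 3.64 ± 0.82 (SD, n = 3 each), a difference of 5.94 that ranked 2 of 10855 among differences towards PICs. As 2 satellite arrays lay under the low value level, the size of this difference is not well measured. The PIC mean was 47.8-fold above that level.

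The other Qprt probe set (1418836_at) read 232, 344 and 441 in PICs and 5, 5 and 14 in satellite cells. All 3 satellite arrays were under 16, so Qprt was at least 20.5-fold higher in PICs by this probe set, a bound taken from the low value level. Among PICs replicate 3 had the highest Qprt reading on both probe sets, and among satellite cells it was the array above 16 on the brighter one.

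Kynu and Haao, which act before Qprt, gave no measured level. Kynu, kynureninase, had 2 probe sets that read 5 or 6 on every array. Haao, which makes the precursor of quinolinic acid, read 4 on all 6 arrays. Intensities this low lie at the bottom of the range of all probe sets and do not show that a transcript is missing. The Haao and Kynu readings therefore carry no difference in either direction.

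Of the other 9 enzymes listed for the tryptophan route, 8 had a probe set of their own and 2 were tested. Tdo2, Ido1 and Ido2, which open the ring of tryptophan, Kmo, which hydroxylates kynurenine, and Aadat, an aminotransferase, read 4 or 5 on every array. Afmid, which releases kynurenine, read 45, 51 and 70 in PICs and 108, 159 and 192 in satellite cells. It was the gene of this list that was called, 2.74-fold higher in satellite cells (log2 difference -1.45, 95% interval -2.08 to -0.82, limma adjusted p = 0.00369). By the same rule 13.0% of all genes tested were higher in satellite cells. The Afmid value rests on probe set 1452944_at, since its others read 7, 8 and 5 on all 6 arrays. Kyat1, a kynurenine aminotransferase, differed by 0.16 (95% interval -0.23 to 0.54, adjusted p = 0.445). Kyat3, a related aminotransferase, read 9, 9 and 11 in PICs and 19, 21 and 16 in satellite cells and was too low for the filter. Acmsd was not analysed here.

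Nicotinamide enters salvage through Nampt, nicotinamide phosphoribosyltransferase, the rate-limiting enzyme of that route. The brightest of its 3 probe sets (1455320_at) read 111, 113 and 139 in PICs and 116, 146 and 133 in satellite cells. The populations overlapped, with log2 means of 6.91 ± 0.18 and 7.03 ± 0.17 (SD, n = 3 each) and a difference of -0.12. A further one (1417190_at) read 90, 98 and 126 against 118, 124 and 150. It lay lower in PICs at each replicate number, by 0.39, 0.34 and 0.25 on the log2 scale, while the populations still overlapped. The remaining Nampt probe set (1448607_at) read 4 on all 6 arrays, so the gene's level rests on the other two.

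Naprt, nicotinate phosphoribosyltransferase, opens the route from nicotinic acid. It read 182, 254 and 358 in PICs and 79, 67 and 102 in satellite cells. All PIC arrays were above all satellite arrays, with log2 means of 7.99 ± 0.49 and 6.35 ± 0.31 (SD, n = 3 each). The difference of 1.65, or 3.13-fold, was 1.20, 1.92 and 1.81 at replicate numbers 1, 2 and 3. Naprt shares its product, nicotinic acid mononucleotide, with Qprt.

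Nmnat1 and Nmnat3 add the adenylyl group that completes the dinucleotide, in the nucleus and in the mitochondria respectively. The Nmnat1 probe set that passed the filter (1425773_s_at) read 20, 36 and 33 in PICs and 43, 35 and 33 in satellite cells, a log2 difference of -0.35. That value rested on replicate 1: the difference was -1.10 at replicate 1, 0.04 at replicate 2 and 0.00 at replicate 3, and 0.02 without both arrays numbered 1. The suffix of this probe set marks possible hybridisation to related transcripts. The other Nmnat1 probe set read 8 to 12.

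Nmnat3 read 28, 25 and 27 in PICs and 30, 30 and 25 in satellite cells, a log2 difference of -0.08, and its other probe set read 5 on all arrays. Nadk, which phosphorylates NAD to NADP, read 708, 718 and 815 in PICs and 770, 688 and 690 in satellite cells. Its log2 means were 9.54 ± 0.11 and 9.48 ± 0.09 (SD, n = 3 each), and its other probe set read 152, 160 and 158 against 157, 165 and 145. For Nmnat3 and both Nadk probe sets the populations overlapped.

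Nnmt, nicotinamide N-methyltransferase, methylates nicotinamide with the methyl group of S-adenosylmethionine and is known for high levels in liver and fat. It read 1933, 2414 and 2551 in PICs and 124, 119 and 236 in satellite cells. The satellite arrays were well above the low value level, so both sides of this difference were measured. The log2 means were 11.16 ± 0.21 and 7.24 ± 0.55 (SD, n = 3 each), 3.91 apart or 15.1-fold, which ranked 146 of 10855 towards PICs. At replicate numbers 1, 2 and 3 the difference was 3.96, 4.34 and 3.43.

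**Figure D2:**
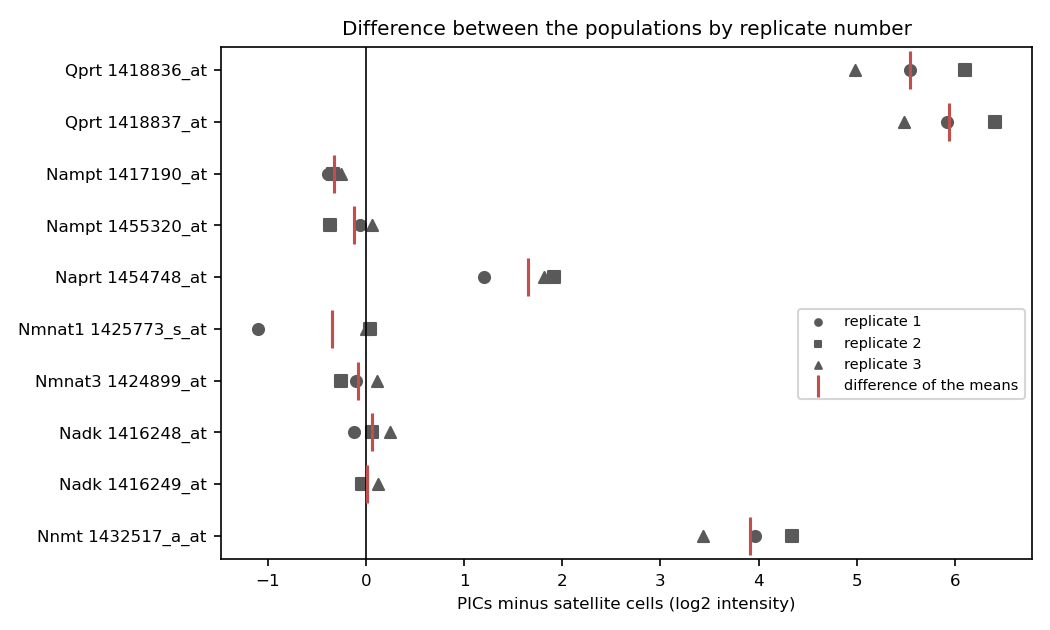
Log2 difference, PICs minus satellite cells, at each replicate number (grey symbols) and between the means of 3 arrays (red bars) for the 10 probe sets above the low value level on at least 3 arrays. Qprt, Naprt and Nnmt lie to the right of 0 at every number, and Nmnat1 lies at -1.10 at replicate 1 and near 0 at the other two. The size of the Qprt points is not well measured, since most of its satellite readings are under the low value level.

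Qprt, Nnmt and Naprt each read highest on replicate 3 in both populations. By the brightest probe set of a gene, that held for 3 of the 7 genes that passed the filter. Over all genes tested it held for 28.3%. Nampt also read highest on replicate 3 in both populations by 1417190_at, though not by its brightest probe set. On the log2 scale, satellite replicate 3 lay above the average of replicates 1 and 2 by 0.96 for Nnmt and 0.49 for Naprt, with a median of 0.03 over all genes. For Qprt the reading there was 24, against 9 on each of the others, which lie under the low value level and give no measured difference. For PIC replicate 3 the same quantity was 0.73 for Qprt, 0.24 for Nnmt and 0.74 for Naprt, with a median of 0.06. Without both arrays numbered 3 the difference between populations was 4.15 for Nnmt and 1.56 for Naprt. For Qprt both satellite arrays that remain read 9, under the low value level, so only a bound is left, at least 40.3-fold higher in PICs.

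Markers of the sorted populations were read on the same arrays. All 8 satellite cell markers, among them Pax7, Myf5 and Cdh15, were called higher in satellite cells, and their summed intensity was 29700 to 33700 there and 1190 to 3050 in PICs. All 7 interstitial markers with a probe set, among them Pdgfra and Cd34, were called higher in PICs. Their sums were 60100 to 61800 there and 9790 to 15500 in satellite cells. Over all genes tested 13.0% were called higher in satellite cells and 16.7% in PICs. Cd34 is one of the proteins sorted on, so nothing is read from its difference. Its satellite readings were 3596, 3216 and 3663, well above the low value level. Ly6a, the gene of Sca1, was not analysed here. On every array of the opposite population 8 of 8 satellite cell markers and 5 of 7 interstitial markers exceeded 16. Cd34 is among these 5 and is part of the interstitial sums. In bulk RNA fewer cells of a type and less RNA per cell cannot be told apart.

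Among the satellite arrays the interstitial sum was 12600, 9790 and 15500 at replicates 1, 2 and 3, and Pdgfra read 513, 449 and 1074. The satellite readings of Qprt, Nnmt and Naprt were also highest at replicate 3, as were those of Nampt by 1417190_at but not by 1455320_at. The part of interstitial RNA in these readings was not tested. Markers of macrophages and leukocytes moved with replicate 1 instead. The sum of their 10 genes was 2730, 356 and 133 in PICs and 3620, 218 and 153 in satellite cells, with 3 of the 10 above 16 on every PIC array and 3, not all the same genes, on every satellite array. Kynu, an enzyme known from macrophages, read 5 on both replicate 1 arrays by each probe set. Ptprc, the leukocyte antigen CD45, read 181 and 215 on those 2 arrays and 6 to 9 on the other 4.

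Endothelial markers summed to 1890 to 6460 in PICs and 3320 to 4630 in satellite cells, with 0 of 8 called. Pericyte and smooth muscle markers summed to 6210 to 15100 and 9530 to 13400, with 1 of 6 called in each direction. Schwann and glial markers summed to 1790 to 12300 and 3590 to 10200, muscle fibre markers to 953 to 1320 and 762 to 1420, and the 3 adipocyte markers stayed under 16 on all arrays. Of the glial list 1 of 3 was called higher in PICs. Of the fibre list 3 of 6 were called higher in PICs and 2 of 6 in satellite cells. Over all genes tested 16.7% were higher in PICs and 13.0% in satellite cells, and nothing is read from these counts. The part of these cell types in the members' readings was not tested.

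**Figure D3:**
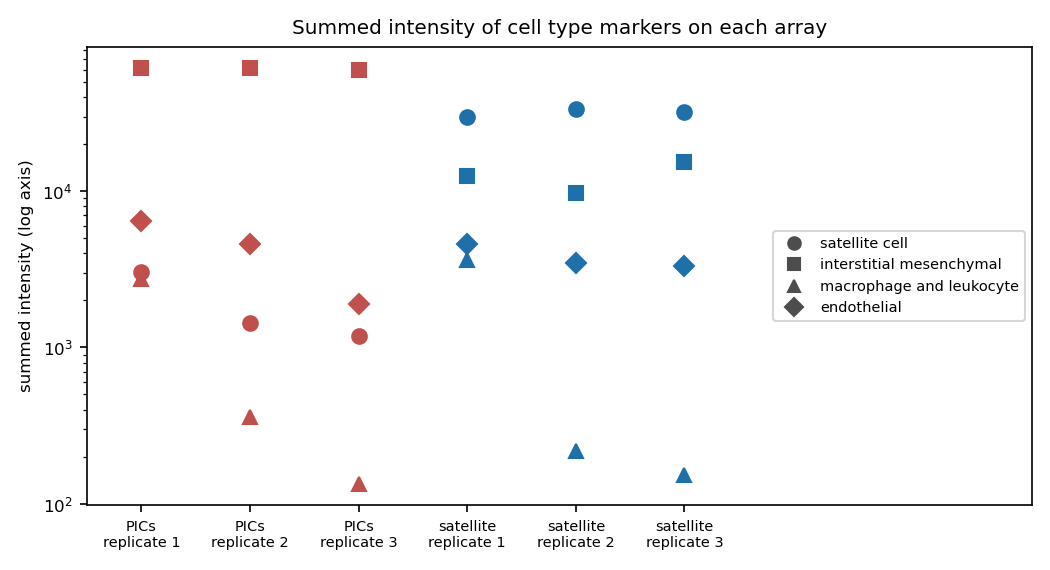
Summed intensity of 4 marker lists on each array, on a log axis, with PICs in red and satellite cells in blue. Interstitial markers lie at 60100 to 61800 in PICs, satellite cell markers at 29700 to 33700 in satellite cells, and leukocyte markers are highest on replicate 1 of each population.

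Other genes of NAD metabolism, from lists outside the 9 members, were tested in the same fit. Of 42 listed, 27 passed the filter on low values. The rule called 3 of them as higher in PICs and 2 as lower. The share called over all genes was 29.8%. Their median log2 difference was -0.15, beside -0.04 over all genes tested.

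Among the remaining salvage enzymes 5 of 6 were tested and 2 were higher in PICs, as were 16.7% of all genes tested. Nmrk1, the kinase that admits nicotinamide riboside to the NAD pool, read 107, 123 and 82 in PICs and 24, 26 and 25 in satellite cells. The populations were parted and the difference was 2.04 on the log2 scale, or 4.11-fold (95% interval 1.63 to 2.44; limma, adjusted p = 1.70e-04). Pnp, purine nucleoside phosphorylase, which splits the riboside to nicotinamide, read 1599, 1984 and 3965 in PICs and 752, 629 and 1189 in satellite cells. It was 2.82-fold higher in PICs (log2 difference 1.49, 95% interval 0.55 to 2.44; limma, adjusted p = 0.0171). Pnp was not called without satellite replicate 1 (adjusted p = 0.0527), without satellite replicate 2 (0.0614) or with no filter (0.0833), and the limma adjusted p with the replicate number as a block was 0.00176.

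Nmnat2, the cytosolic and axonal adenylyl transferase, read 47, 57 and 14 in PICs and 64, 65 and 60 in satellite cells. All PIC arrays were lower, PIC replicate 3 by far the most, and the difference of -0.91 did not pass the test (95% interval -2.14 to 0.32; limma, adjusted p = 0.174), with -0.28 left without that array. Nadsyn1, which amidates the product of the Qprt and Naprt routes to NAD, differed by -0.15 (95% interval -0.67 to 0.38). Nadk2, the mitochondrial NAD kinase, lay 0.44 lower in PICs by its brightest probe set (95% interval -0.76 to -0.12; limma, adjusted p = 0.0304), short of the 2-fold threshold. Nmrk2, the muscle riboside kinase, read 4 or 5 on every array.

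Enzymes that consume NAD had 1 of 12 tested genes called, higher in satellite cells, and 0 called higher in PICs. Over all genes tested 13.0% were higher in satellite cells and 16.7% in PICs. Sirt2, a mainly cytosolic deacetylase, read 979, 987 and 1106 in PICs and 2325, 2276 and 1901 in satellite cells. The 2.11-fold difference (log2 -1.08, 95% interval -1.39 to -0.77; limma, adjusted p = 6.19e-04) lay close to the threshold and was -0.99 without both arrays numbered 1. Parp1, the main DNA damage polymerase, read 726, 731 and 780 against 1328, 1568 and 1545. Its difference of -0.99 (95% interval -1.26 to -0.71; limma, adjusted p = 5.90e-04) fell just short of 2-fold, and Parp2, its partner, differed by -0.76.

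Leaving out PIC replicate 3 brought Parp1 (-1.02) and Sirt1 past the threshold and made 3 consumers higher in satellite cells, and leaving out satellite replicate 1 made 2, with Parp1 at -1.06. Sirt1, a nuclear deacetylase, read 393, 455 and 929 in PICs and 635, 834 and 1227 in satellite cells, with overlap (difference -0.66, 95% interval -1.58 to 0.27; limma, adjusted p = 0.191). With the replicate number as a block the adjusted p of Sirt1 was 0.0108 by limma, at the same difference. Sirt3, Sirt4 and Sirt7, sirtuins of the mitochondria and the nucleolus, differed by 0.14, -0.21 and 0.11. Sirt5 differed by -0.57, Parp3 by 0.67, Parp4 by -0.40, and the tankyrase genes Tnks and Tnks2 by 0.19 and 0.37. Without PIC replicate 3 the Parp4 difference was 0.12. By dimmer probe sets Sirt5 differed by -0.09 (1428916_s_at) and Tnks2 by 0.74 (1447522_s_at). Bst1, a NAD glycohydrolase of the cell surface, Sarm1, a NAD-cleaving enzyme of axons, and Sirt6 did not pass the filter, and Cd38 was not analysed here.

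Aox1 was the gene called among 8 tested for transfer, repair, turnover and transport, higher in PICs as were 16.7% of all genes tested. It encodes aldehyde oxidase, which oxidises the methylnicotinamide made by Nnmt. It read 289, 243 and 271 in PICs and 49, 21 and 85 in satellite cells, 6.01-fold apart (log2 2.59, 95% interval 1.44 to 3.74; limma, adjusted p = 0.00402). The PIC arrays lay close together and above all satellite arrays, which spread from 21 to 85. The transhydrogenase Nnt differed by 0.00, the NADHX repair enzymes Naxe and Naxd by 0.11 and 0.41, and the mitochondrial NAD carrier Slc25a51 by 0.40. Nudt12 and Nudt13, which hydrolyse NADH, differed by -0.21 and -0.31, and the ectonucleotidase Nt5e by -0.18. Aspdh, Slc12a8 and Slc22a13 did not pass the filter.

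The methyl cycle supplies the S-adenosylmethionine that Nnmt uses and removes its product. Of 7 genes tested, 2 were higher in satellite cells and 0 in PICs, where 13.0% of all genes were higher in satellite cells and 29.8% were called in all. Ahcy, which clears S-adenosylhomocysteine, read 1182, 1080 and 1169 in PICs and 3756, 4335 and 4074 in satellite cells, 3.54-fold apart (log2 -1.82, 95% interval -2.09 to -1.56; limma, adjusted p = 7.83e-05). Mtr, methionine synthase, read 64, 55 and 66 in PICs and 233, 300 and 295 in satellite cells, 4.46-fold apart (log2 -2.16, 95% interval -2.51 to -1.80; limma, adjusted p = 1.00e-04). In both genes the satellite arrays were all above the PIC arrays. Arrays did not overlap in either direction for 64.6% of all genes tested. Within the list Mtrr had the same order, Mat2b had the reverse order, and Ahcyl1, Ahcyl2 and Mtap overlapped. A relation to Nnmt was not tested.

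Under the 2-fold threshold, Mat2b, a subunit of the adenosylmethionine synthetase, lay 0.75 higher in PICs (95% interval 0.27 to 1.23; limma, adjusted p = 0.0179). Mtrr, which reactivates methionine synthase, lay lower in PICs by -0.62 (95% interval -1.02 to -0.22; limma, adjusted p = 0.0192). The Ahcy-related genes Ahcyl1 and Ahcyl2 differed by 0.25 and 0.20, and Mtap, of the methionine salvage path, by -0.29. Gnmt, Bhmt and Mat1a, genes known from liver, did not pass the filter, and Mat2a was not analysed here.

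**Figure D4:**
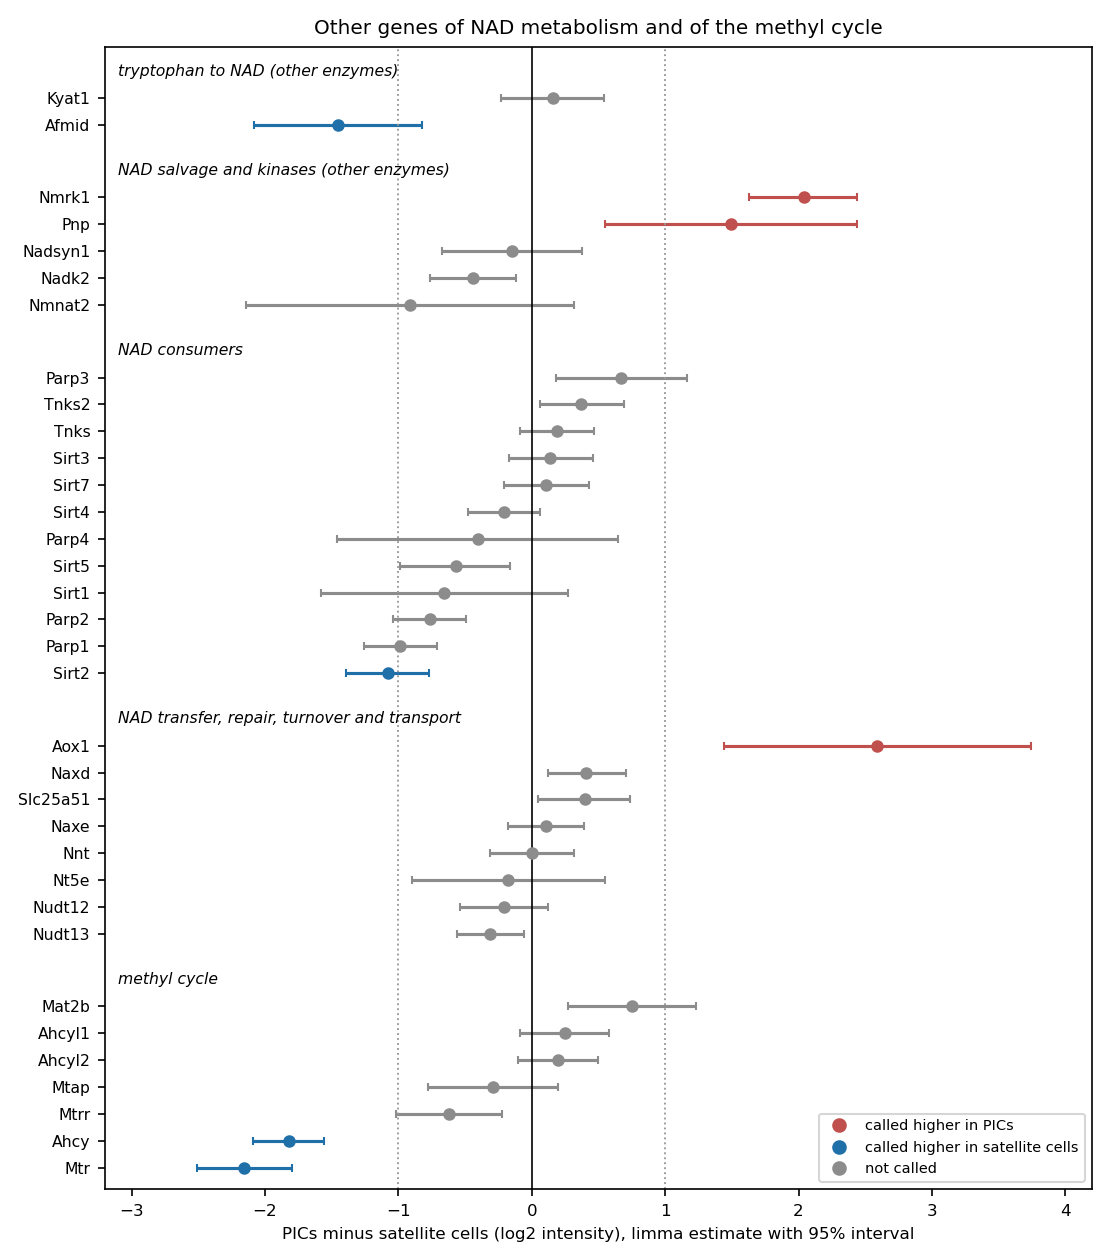
Limma estimate of the log2 difference, PICs minus satellite cells, with its 95% interval for the 34 genes tested outside the 9 members, in 5 lists. Dotted lines mark a 2-fold difference. Nmrk1, Pnp and Aox1 lie on the PIC side and Afmid, Sirt2, Ahcy and Mtr on the satellite side as called genes.

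The genes whose pattern over the 6 arrays lay closest to Qprt were Shisa3, Cldn1 and Kcnk2, by the root mean square distance of log2 values after each gene was centred on its own mean. The distances were 0.217, 0.341 and 0.439. Shisa3 read 312, 374 and 524 in PICs and 6, 6 and 11 in satellite cells, so that all its satellite readings were under the low value level, as were 2 of 3 for Qprt, and this distance rests in part on values with no order. For Nnmt the closest genes were Abca9, Hsd11b2 and Twist2, at 0.100, 0.114 and 0.127, and 18 genes lay within 0.2. Twist2 read 6, 6 and 10 in satellite cells, under the low value level, so its distance rests in part on such values too. Nampt had 1782 genes within that distance, led by 1700030K09Rik, Saal1 and Kiz.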

How the data were processed

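Per the labels' protocols, biotinylated cRNA from 200 ng of total RNA was hybridised to 1-colour Affymetrix arrays. The submitters' processing notes name GCRMA, version not given in the sources used here, a method that corrects background by probe sequence, quantile normalizes and summarises probes into probe sets. The deposited intensities are whole numbers on a linear scale, with a median of 10 on each array and 44.7% to 45.5% of probe sets above 16. Rounding makes low values coarse. Precision is limited by 3 arrays per population. Scanner files and scan dates were not used here.

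Values were taken to log2. Of all probe sets 34945 had 1 symbol, updated by gene number to RefSeq names, of which 34741 matched. Probe sets above log2 4 on at least 3 of 6 arrays were kept, and the one with the highest mean stood for its gene. Differences between the populations in 10855 genes were fitted with limma 3.58.1 in R 4.3.3 (eBayes, two-sided), with Benjamini-Hochberg adjustment over all genes. The fit was run on simulated data with independent noise on each array, which cannot show how deviations shared by equal replicate numbers act on it. A gene was called at adjusted p under 0.05 and a log2 difference of at least 1. The members and lists were chosen with earlier results of these data known. Named are all members, called list genes, and the 3 nearest profiles of Qprt, Nampt and Nnmt; list genes that were not called are named beyond this rule, chosen after their values were seen. If no array of one population exceeded log2 4, the fold is a bound against that level.

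Both populations carry replicate numbers 1 to 3, which no label describes as pairs. Deviations from the population means correlated across genes at 0.623, 0.222 and 0.579 for equal numbers and at -0.568 to 0.0363 for unequal ones. Deviations from a mean cancel over the 3 arrays of a population. The negative values at unequal numbers follow in part from this and are no separate sign of pairing. That equal numbers are pairs is thus a reading from the data. The main fit did not use the numbers, so its intervals and adjusted p-values are unpaired. The replicate block was run as an alternative. Arrays correlated at 0.956 to 0.986 within populations and 0.800 to 0.850 between them.

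Alternatives were no filter, a stricter filter (log2 above 6), the mean of a gene's probe sets, log2(value + 16), quantile normalization, median centring, an intensity trend, array weights, the replicate block and leaving out each array. Leaving out both arrays numbered 1 or 3, and a fit over single probe sets, were chosen after seeing the data.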

Additional observations from a re-analysis of the deposited data

How the results depend on the processing

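Over all genes the replicate block called 1852 towards PICs and 1448 towards satellite cells, against 1815 and 1415, and it changed no call among the 34 list genes tested. The salvage list had 1 gene higher in PICs in place of 2 with no filter, and 1 to 2 when single arrays were left out, Pnp being the gene lost. The consumer list had 1 gene higher in PICs (Parp3) and 2 higher in satellite cells (Parp1 and Sirt2) with array weights, and 1 to 3 higher in satellite cells when single arrays were left out. Without both arrays numbered 1, Sirt2 was not called and Parp1 was. On the log2(value + 16) scale the Qprt difference was 4.74, since that scale compresses low values by its construction. With array weights Nampt lay at -0.30 and Nmnat3 at -0.22; the cause was not tested. Leaving out single arrays moved Nnmt between 3.74 and 4.23 and Naprt between 1.40 and 1.89. For Qprt, leaving out satellite replicate 3 left only a bound, at least 47.8-fold. Signal near the floor limits Qprt in satellite cells, Kynu and Haao.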

Other observations

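Probe sets of 1 gene did not always tell the same story among the NAD genes outside the members. In a limma fit over 18433 single probe sets, 27.9% were called. Parp1 had 2 probe sets called higher in satellite cells, at -1.26 (1422502_at, limma, adjusted p = 0.00115) and -1.21 (1422503_s_at, adjusted p = 0.00165). The brighter one taken for the gene lay at -0.99, and a further, dim one (1443573_at) read 28 to 39 on all arrays and differed by 0.01. Slc25a51 ranged from -0.26 to 0.40 over 3 probe sets, with none called. Nmrk1 had a second dim probe set that read 11, 15 and 10 in PICs and 7 on each satellite array, under the low value level throughout.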
